A study of Mus musculus with 12 samples.

Results

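Transferred CNS cells were compared with naive CD4 cells, that is, MOG-specific CD4+ T cells at the end of an adoptive transfer experiment against the resting cells from which such an experiment starts. The comparison held 6 of the 12 arrays of the study, 3 from each group, chosen by their sample titles, and it covered every gene on the array that passed a filter on dim signals. The difference between the groups is the net change over culture, transfer, entry into the central nervous system (CNS) and re-isolation, and it does not separate these steps.

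The naive group held CD4+ T cells taken from spleens of B6.2d2 mice, which carry a transgenic T cell receptor specific for myelin oligodendrocyte glycoprotein (MOG). The transferred group held B6.2d2 cells that had first been differentiated into Th17 cells in culture, had then been given to lymphopenic Rag1-/- mice, and were taken back from the CNS when symptoms of experimental autoimmune encephalomyelitis (EAE) peaked. Rag1-/- hosts cannot make T or B cells of their own but keep their other blood and brain cells. The other arrays were cultured Th17 cells, and CNS CD4+ T cells of wild-type C57BL/6 mice with EAE after immunisation with the peptide MOG35-55. Both groups compared carry the same receptor transgene. Each group had 3 replicates, which came from 3 independent experiments. The labels give no age, sex, purity or sorting scheme, so the cells other than CD4+ T cells that each sample held are known only from marker genes on the arrays.

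Naive CD4+ T cells circulate between blood and lymphoid organs, guided by receptors such as Ccr7, and are kept quiescent by transcription factors such as Klf2, Foxo1 and Lef1. On activation they divide, turn to glycolysis and acquire one of several helper programmes. The Th17 programme is known for Il17a, Il17f and Il22, while EAE is known to depend on T cells that make granulocyte-macrophage colony-stimulating factor, the product of Csf2. Inflamed CNS tissue in EAE also holds many macrophages, microglia and other leukocytes.

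Levels are log2 signals from which the array's 75th percentile was subtracted, so that 0 is that percentile, and they are compared between arrays for the same gene, never between genes. A summed level adds the linear levels of a list's members, so it is set mostly by the members with the brightest probes. Between 57.1% and 64.9% of the probes on an array were well above background, and 0 spots were saturated. The number of arrays limits the precision: the median SD of a gene over 3 arrays was 0.246 in the naive and 0.259 in the transferred group. Naive arrays and transferred arrays each correlated with others of their group across genes at 0.976 or more, while pairs of a naive and a transferred array correlated at 0.818 to 0.858. Replicate number, slide and scan were the same thing, and each group had a fixed position on the slide, so that position and group cannot be told apart. 2 features set single arrays apart. Genes of the Y chromosome were above background on naive replicate 1 but at background on naive replicates 2 and 3, and Xist, the RNA of the inactive X chromosome, showed the opposite. The early response genes Fos, Fosb and Dusp1 were much higher on naive replicate 1 than on naive replicate 2.

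The promoters of 5 genes on which the results below turn are shown first, as the 250 bases before the start of the gene, 5′ to 3′ on the gene's own strand, from RefSeq on build GRCm38.p6. Cxcl1, Cxcl2 and Cxcl3 encode chemokines that attract neutrophils, lie near each other on chromosome 5, and rose from background. Il17a encodes the defining cytokine of Th17 cells. Isg15 encodes a ubiquitin-like protein induced by interferon, and is shown because it was not called. Capitals mark matches to a kappa-B motif (GGGA, any base, TTTCC; bound by NF-kappa-B) in the first 3, to an AP-1 motif (TGANTCA, bound by Fos and Jun proteins) in Il17a, and to overlapping interferon response motifs (GAAA, any 2 bases, GAAA) in Isg15.
Cxcl1: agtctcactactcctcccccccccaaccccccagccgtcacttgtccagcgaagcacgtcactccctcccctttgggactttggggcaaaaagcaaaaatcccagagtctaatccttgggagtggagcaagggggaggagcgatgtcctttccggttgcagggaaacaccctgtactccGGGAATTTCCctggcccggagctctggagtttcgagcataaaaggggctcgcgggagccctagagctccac
Cxcl2: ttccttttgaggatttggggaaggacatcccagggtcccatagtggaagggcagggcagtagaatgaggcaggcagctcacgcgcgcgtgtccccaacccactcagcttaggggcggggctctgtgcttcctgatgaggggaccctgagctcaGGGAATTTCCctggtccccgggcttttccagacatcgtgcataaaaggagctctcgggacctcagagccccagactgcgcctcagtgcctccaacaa
Cxcl3: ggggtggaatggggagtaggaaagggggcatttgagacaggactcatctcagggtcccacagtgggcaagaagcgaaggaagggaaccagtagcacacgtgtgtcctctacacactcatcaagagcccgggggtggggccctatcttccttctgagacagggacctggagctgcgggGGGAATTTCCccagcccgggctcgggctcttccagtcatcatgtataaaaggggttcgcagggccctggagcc
Il17a: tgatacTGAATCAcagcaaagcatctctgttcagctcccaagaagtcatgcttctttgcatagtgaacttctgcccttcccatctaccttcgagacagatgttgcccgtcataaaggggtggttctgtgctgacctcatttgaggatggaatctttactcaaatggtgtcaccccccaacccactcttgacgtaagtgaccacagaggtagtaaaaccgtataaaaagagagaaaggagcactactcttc
Isg15: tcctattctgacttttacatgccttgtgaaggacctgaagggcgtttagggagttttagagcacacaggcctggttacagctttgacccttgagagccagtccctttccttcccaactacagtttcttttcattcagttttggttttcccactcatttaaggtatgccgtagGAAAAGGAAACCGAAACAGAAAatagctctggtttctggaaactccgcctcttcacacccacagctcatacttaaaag

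These windows lie at chr5:90890995-90891244 (Cxcl1), chr5:90903649-90903898 (Cxcl2), chr5:90785851-90786100 (Cxcl3) and chr1:20730655-20730904 (Il17a) on the plus strand, and at chr4:156200819-156201068 on the minus strand (Isg15). Both strands were searched. The kappa-B letters began 71, 97 and 73 bases before the start of Cxcl1, Cxcl2 and Cxcl3, and the same 10 letters, GGGAATTTCC, stood in all 3. They occurred in 3 of 14 chemokine ligand genes with a promoter entry and in 0.356% of all 32851 promoters of this length. The AP-1 letters occurred in 3 of 17 secreted cytokine genes, namely Il17a, Il6 and Lif, and in 6.75% of all promoters. The interferon response letters occurred in 12 of 21 interferon-stimulated genes and in 2.98% of all promoters. A list gene was counted if any of its listed starts had a match, while the percentages are of single promoters. The counts and the percentages are thus unlike measures. A match describes these letters and is not a measured binding site.

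Of 18632 genes tested, 3813 were called higher and 5226 lower in transferred CNS cells at an adjusted p under 0.05 (limma, Benjamini-Hochberg over all genes tested), that is, 20.5% and 28.0% of all genes, or 48.5% in either direction. At least 2-fold, 3019 (16.2%) were higher and 3175 (17.0%) lower. The log2 values of the 3 naive and the 3 transferred arrays did not overlap for 60.0% of genes. The median change over all genes was -0.16 on the log2 scale. With so many genes called, a gene list is described below by its counts and its median beside these background values. The members and lists were chosen with earlier results of these data known, and no list was tested as a set.

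**Figure D1:**
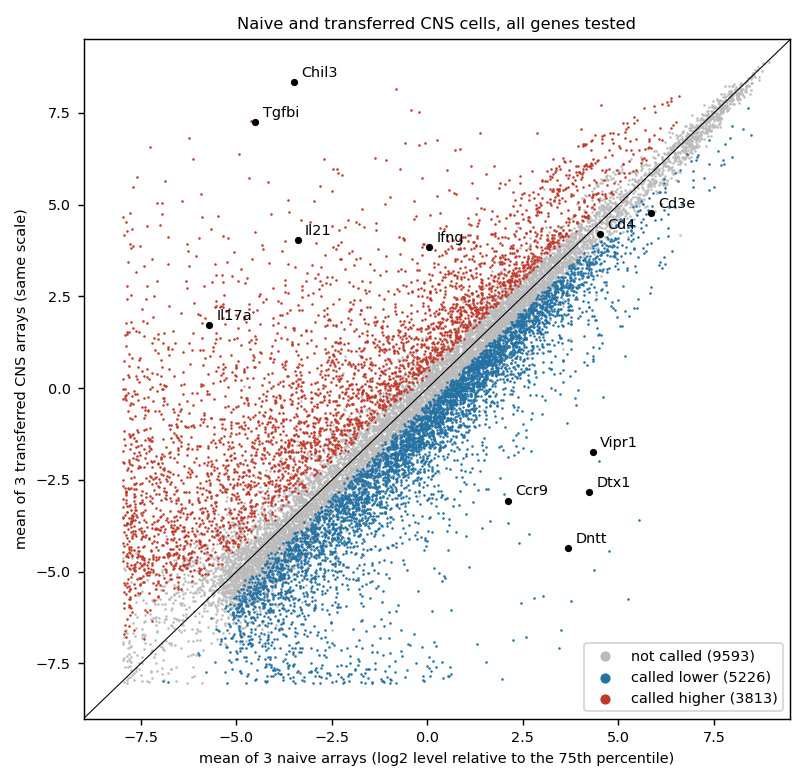
Mean log2 level of each gene tested on the 3 naive arrays (horizontal axis) and the 3 transferred CNS arrays (vertical axis), relative to the 75th percentile of each array; red and blue points are the 3813 genes called higher and the 5226 called lower, grey points the rest, and the line marks equal levels. Tgfbi, Il21 and Chil3 lie far above the line and Dntt, Dtx1 and Vipr1 far below it, while Cd4 lies close to it.

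The 4 genes given as markers of the comparison differed between all naive and all transferred arrays. Il21, a cytokine made by activated CD4+ T cells, read -4.44, -3.39 and -2.38 on the naive arrays and 4.16, 4.05 and 3.88 on the transferred arrays. The groups were far apart, and the transferred arrays were close to each other. Il21 rose by 7.43 ± 0.48 (log2 change ± SE, here and below, n = 3 arrays per group, limma adjusted p = 1.73e-06), a 173-fold difference. Cultured Th17 cells already had a mean of 4.01, and transferred cells differed from them by 0.02 ± 0.48 (limma adjusted p = 0.984), beside 40.5% of all genes called between naive and cultured cells and 28.6% between cultured and transferred cells. Its probe covers chr3:37121681-37121740 on build mm9.

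Tgfbi, a secreted matrix protein induced by TGF-beta, read -4.88, -3.83 and -4.80 on the naive arrays and 6.71, 7.56 and 7.49 on the transferred arrays. Each group was tight next to the gap between them. The rise of 11.76 ± 1.02 (3460-fold, limma adjusted p = 1.1e-05) was the second largest among genes with a matched symbol, Riken and similar names aside, measured on all 6 arrays without overlap. Cultured cells lay between the groups but were uneven, at 1.81, 4.59 and -0.75, and CNS cells of immunised mice had a mean of 7.18. Macrophages also express Tgfbi, and macrophage markers rose on the same arrays, as described below; their part in this value was not tested. Its probe covers chr13:56740460-56740519 on build mm9.

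Dntt encodes terminal deoxynucleotidyl transferase, which adds bases to receptor genes in the thymus. Its values were 4.08, 3.77 and 3.19 in naive cells and -4.35, -4.16 and -4.58 in transferred cells, with no overlap. It fell by 8.04 ± 1.19 on the log2 scale, or 264-fold (limma adjusted p = 0.00035). In culture it was low on 2 arrays (-2.58 and -3.54) and still 2.51 on the third, so some cultures were low for Dntt as well. Vipr1, a receptor for vasoactive intestinal peptide, read 4.49, 4.15 and 4.36 in naive and 0.04, -3.08 and -2.20 in transferred cells. It fell by 6.08 ± 0.98 (67.5-fold, limma adjusted p = 0.000604), with transferred replicate 1 the highest of its group. A second Vipr1 probe gave a smaller change of -2.50. The probes cover chr19:41133936-41133995 (Dntt) and chr9:121581964-121582023 (Vipr1) on mm9, and whether they lie in coding sequence or a UTR was not analysed here.

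The label of the cells was checked against T cell genes. All 18 members of a T cell core and receptor signalling list were above background on all 6 arrays, so both groups carried the CD4+ T cell signature. Cd4 itself read 4.61, 4.56 and 4.39 in naive and 4.39, 4.29 and 3.94 in transferred cells. These ranges just met, and the difference of -0.32 ± 0.19 was not called (limma adjusted p = 0.195), although the mean of all Cd4 probes was (-0.68, 0.0212). Thy1 (-0.21) and Cd2 (-0.24) were not called either. However, 12 of the 18 members fell and 0 rose (list median -1.03). Cd3e, a chain of the receptor complex, read 5.91, 5.77 and 5.85 against 4.85, 4.99 and 4.43 and fell by 1.09 ± 0.21 (limma adjusted p = 0.00187). The falls of the kinase gene Lck (-1.27), the receptor chain gene Cd247 (-2.52), the receptor-associated Trat1 (-2.87) and Cd5 (-1.59), which tunes receptor signals, were larger. In such bulk samples, fewer cells of a type and less RNA per cell cannot be told apart. All 8 GIMAP genes, which encode GTPases of lymphocyte survival, fell as well (median -1.92), from -1.27 for Gimap5 to -3.02 for Gimap8, with Gimap3 (-1.93), Gimap4 (-1.97) and Gimap6 (-1.93) in the middle. Gimap8 read 4.57, 5.21 and 5.12 in naive and 1.59, 2.31 and 1.94 in transferred cells.

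Genes of the Th17 programme were higher in transferred cells for 12 of 17 members, 0 were lower and 5 were not called (median 1.94). Il17a read -4.96, -6.27 and -5.89 in naive and 1.82, 1.74 and 1.56 in transferred cells. Only 1 naive array was above background for this gene, and the transferred arrays were tightly grouped. The fitted rise was 7.41 ± 0.80 (limma adjusted p = 4.72e-05). Cultured Th17 cells had a still higher mean of 4.37, and transferred minus cultured cells gave -2.66 ± 0.80 (limma adjusted p = 0.0308). Il17f, its close relative, read -3.45, -5.26 and -5.06 against -2.74, -1.12 and -1.96. Its rise of 2.65 ± 0.79 passed the test (limma adjusted p = 0.0176), but not without naive replicate 2, naive replicate 3 or transferred replicate 2 (0.061, 0.0584 and 0.0681) nor after normexp background correction (0.101).

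Regulators were among the genes that rose. Irf4 (3.86), Maf (3.79) and Ahr (2.59), transcription factors active in Th17 cells, all rose. Il22 did not pass the test (-0.83 ± 1.14, limma adjusted p = 0.579; 0.0235 with only the 6 arrays compared), at -3.58, -3.83 and -4.22 in naive and -4.71, -4.93 and -4.49 in transferred cells. All transferred arrays were thus below the naive ones for Il22, whereas its mean in culture was 1.16. The receptor gene Il23r was not called either (0.41 ± 1.19, limma adjusted p = 0.806), and its values overlapped. Without naive replicate 3 or transferred replicate 2 the number of Th17 genes called higher was 7 in place of 12.

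Genes linked to encephalitogenic (pathogenic) Th17 cells rose in 12 of 15 cases, with 1 lower and a median of 3.53. Csf2 was not above background on any naive array and read 0.60, 0.76 and 2.76 in transferred cells, at least 130-fold higher (limma adjusted p = 6.85e-06). Its mean was -2.59 in culture and 1.85 in CNS cells of immunised mice. Lgals3 (7.27), which encodes galectin-3, the chemokine genes Ccl3 (8.78) and Ccl4 (8.06), and the inhibitory receptor gene Lag3 (5.71) rose too. Stat4, a transducer of interleukin-12 signals, fell by 1.0 ± 0.28 (limma adjusted p = 0.0138), but not without transferred replicate 3 (0.0562). Lgals3 and Ccl3 are also expressed by macrophages, whose marker list summed to log2 levels of 6.97 to 7.33 on naive and 9.49 to 10.05 on transferred arrays; the part of those cells in these values was not tested.

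Of 18 Th1 genes, 8 were higher, 3 lower and 7 not called (median 1.61). Tbx21, the Th1 master regulator, read -2.0, -1.11 and -1.61 in naive and 1.71, 1.25 and 0.90 in transferred cells, a rise of 2.86 ± 0.65 (limma adjusted p = 0.00417). Hlx (4.41, above background on 1 naive array) and Cxcr6 (3.34) rose with it. The receptor chain gene Il18rap rose by 2.87 ± 0.98 (limma adjusted p = 0.0333), but the adjusted p was 0.0505 to 0.104 without any 1 array other than naive replicate 2. Ifng, the Th1 cytokine, read 0.94, -0.17 and -0.65 in naive and 4.71, 3.34 and 3.48 in transferred cells. The groups did not overlap and the difference was 3.80 ± 1.61, yet it missed the threshold in the fit of all 12 arrays (limma adjusted p = 0.0732). Cultured cells were very uneven for Ifng, at 1.32, 4.16 and -4.33, and with only the 6 arrays compared the same difference was called (adjusted p = 0.00185). Without transferred replicate 3 only 1 Th1 gene was called lower in place of 3.

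Th2 cytokines rose as well. Il13 was not above background on any naive array and read 0.39, -0.95 and 3.80 in transferred cells, at least 99.3-fold higher (limma adjusted p = 0.00318). Il4 was above background on 1 naive array and read 2.29, -0.36 and 3.42 in transferred cells, with a fitted rise of 7.68 ± 2.01 (limma adjusted p = 0.00926). Both genes were spread widely among the transferred arrays and were highest on replicate 3. Ccr8, a chemokine receptor of Th2 and regulatory cells, rose by 6.40. Ccr4, another of that kind, rose by 1.62 ± 0.58 (limma adjusted p = 0.0392), and the adjusted p was 0.0569 to 0.132 without any 1 of the naive replicates or of transferred replicates 2 and 3. Gata3, the Th2 master regulator, differed by 0.01 ± 0.65 and was not called (limma adjusted p = 0.996). In all, 4 of 6 Th2 genes were higher and 0 lower (median 4.01).

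**Figure D2:**
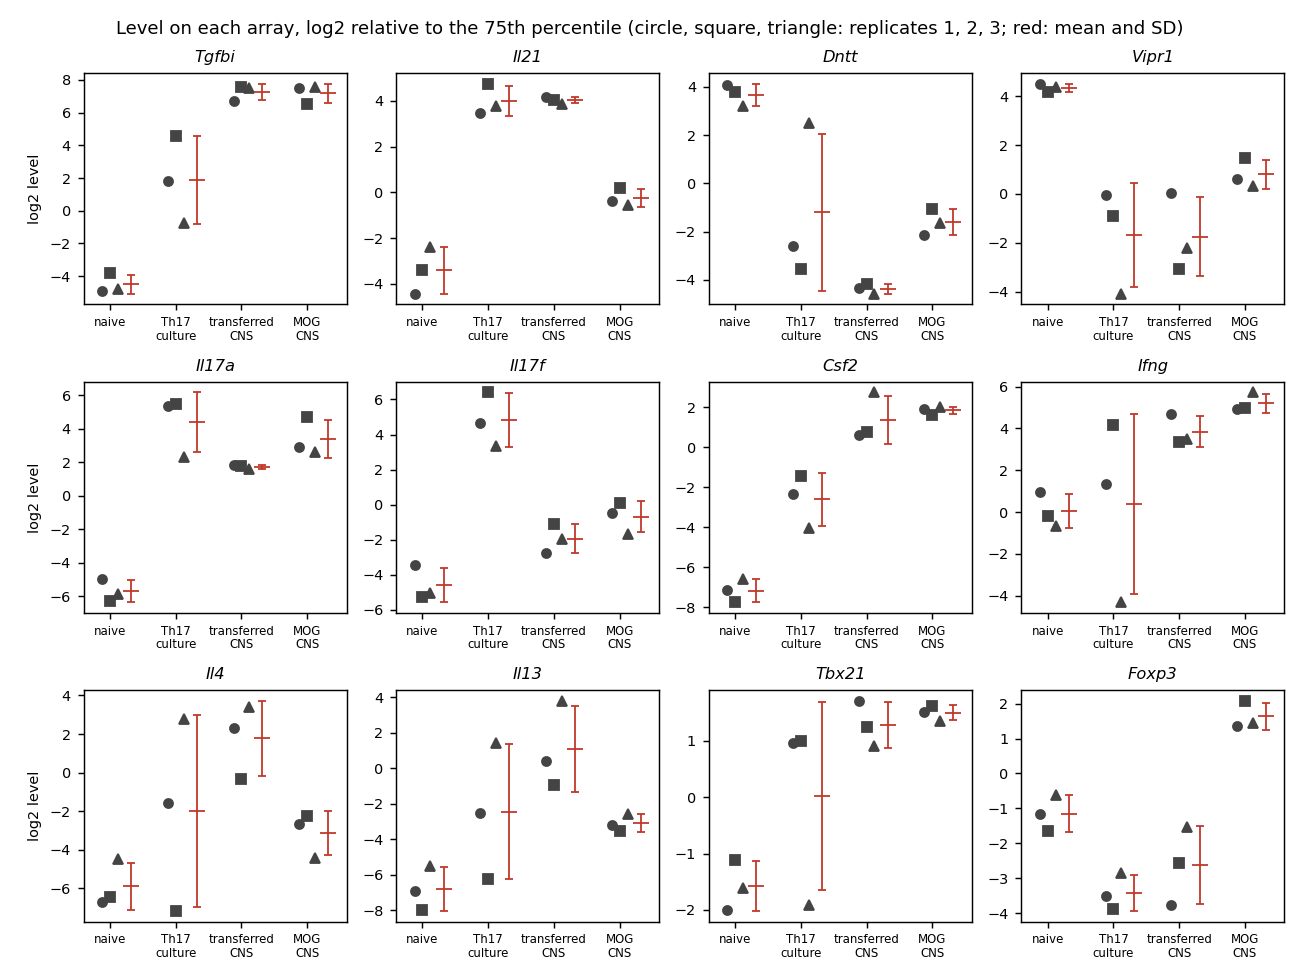
Log2 level of 12 genes on each array in the 4 groups, with circles, squares and triangles for replicates 1, 2 and 3 and a red mark for the mean and SD of 3 arrays; each panel has its own vertical axis. Il17a, Csf2 and Il13 are near or below background in naive cells and high in transferred cells, Il17f peaks in culture, and Ifng is uneven in culture.

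Secreted cytokines were higher in 16 of 20 cases, lower in 1 and not called in 3 (median 4.29). Their summed level was 7.34 to 7.5 on naive and 6.70 to 7.14 on transferred arrays. On naive arrays this sum was almost all Ltb, whose values are given below, so it does not describe the list as a whole. Il6, a cytokine of inflammation made by many cell types, went from background on all naive arrays to 0.50, 0.74 and 3.17 in transferred cells, at least 139-fold higher (limma adjusted p = 5.1e-06). Il2, the T cell growth factor, read -4.49, -5.38 and -3.84 against -0.45, 0.39 and 0.95 and rose by 4.87 ± 0.55 (limma adjusted p = 5.79e-05). Il2 had a mean of -7.03 in culture. Il10 (4.53, above background on 1 naive array), Tnf (2.97) and Osm (4.15) rose too. Macrophages also make Il6, Il10, Tnf and Osm, macrophage markers rose on the same arrays, and their part in these values was not tested. Ltb, which encodes lymphotoxin beta and is made by resting lymphocytes, was the member that fell, from 7.45, 7.36 and 7.29 to 5.60, 5.55 and 5.08 (-1.96 ± 0.31, limma adjusted p = 0.000552).

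All 19 chemokine ligands tested were higher in transferred cells, with a median change of 8.54, or 8.10 when genes at background in naive cells are set to their lower bounds. 10 of them were at background on every naive array. Ccl6 read 5.78, 6.70 and 7.96 in transferred cells, at least 5650-fold above naive cells (limma adjusted p = 3.79e-07). The monocyte attractants Ccl8 (at least 2220-fold), Ccl2 (at least 1650-fold) and Ccl7 (at least 1020-fold) followed. Cxcl2 read 3.07, 3.69 and 4.99 and Cxcl1 2.06, 1.92 and 3.59 in transferred cells, at least 760-fold and 289-fold above naive cells, and Cxcl3 was at least 75.6-fold higher; these are the genes whose promoters carry the kappa-B letters shown above. For Ccl2, Ccl6, Ccl7, Ccl8, Cxcl1, Cxcl2 and Cxcl3, transferred replicate 3 was the highest of the group. Ccl5, a chemokine of effector T cells that naive cells also expressed at 1.84, 1.87 and 2.35, rose by 3.53 ± 0.89 (limma adjusted p = 0.00769). The summed level of the ligands was 2.23 to 2.57 on naive and 8.33 to 9.71 on transferred arrays. The summed level of the macrophage markers was also higher on transferred arrays. It was highest on replicate 2, at 10.05, and that of the ligands on replicate 3, at 9.71. Single macrophage markers differed in this order: Apoe and C1qc were highest on replicate 2, and Arg1 and Mrc1 on replicate 3. Many of these ligands are made by macrophages, and the part of such cells was not tested.

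Among 26 chemokine and homing receptors, 11 were higher, 8 lower and 7 not called (median 0.36), beside 20.5% of all genes higher and 28.0% lower. The share of lower members was thus near that of all genes. Ccr2, a receptor for monocyte chemokines, read -3.05, -2.0 and -2.12 in naive and 1.16, 1.74 and 2.19 in transferred cells and rose by 4.09 ± 0.48 (limma adjusted p = 7.72e-05). Cx3cr1, the fractalkine receptor of microglia and some effector T cells, read -3.36, -1.34 and -2.84 against 2.85, 3.30 and 2.93 (5.54 ± 0.58, limma adjusted p = 3.82e-05). Ccr1 was at least 11.4-fold higher, and Cxcr6 (3.34), Cxcr4 (3.06) and the adhesion receptor gene Cd44 (3.38) rose as well. Cx3cr1 is also on the microglia list described below. Macrophage and microglia markers rose on the same arrays, and the part of such cells in these receptor values was not tested. S1pr1, the receptor that lets T cells leave lymph nodes, read 3.80, 3.97 and 4.03 against 1.06, -0.62 and -0.60 and fell by 3.99 ± 0.44 (limma adjusted p = 4.99e-05). Ccr9, a receptor for homing to gut and thymus, read 2.06, 2.50 and 1.81 against -2.63, -2.95 and -3.63 and fell by 5.20 ± 0.45 (limma adjusted p = 1.05e-05).

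Ccr7, the lymph node homing receptor, was not called. It read 6.92, 6.19 and 6.38 in naive and 6.49, 5.49 and 5.05 in transferred cells, so the groups overlapped (-0.82 ± 0.41, limma adjusted p = 0.127); without transferred replicate 1 it was -1.23 and was called (0.0269). In culture its mean was 3.93. Itga4, a subunit of the integrin by which T cells enter the CNS, was 3.48, 3.59 and 3.55 in naive and 2.47, 2.69 and 1.57 in transferred cells and was not called (-1.30 ± 0.59, limma adjusted p = 0.0913), although it was in 3 of the 18 alternatives (adjusted p 0.0141 to 0.0486).

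Of 20 naive and quiescence genes, 13 fell, 1 rose and 6 were not called (median -2.02). Lef1, a transcription factor of naive T cells, read 5.86, 5.81 and 5.88 against 3.20, 2.83 and 2.23 and fell by 3.09 ± 0.27 (limma adjusted p = 1.22e-05). Dapl1 fell most, from 4.85, 3.75 and 4.44 to -4.15, -4.04 and -6.70, the last being below background; the fitted change was -9.31 ± 0.84 (limma adjusted p = 1.51e-05). Actn1 (-3.84), Tcf7 (-2.44) and Foxo1 (-2.04) fell with them. Il7r, the receptor for the survival cytokine interleukin-7, was not called (-0.33 ± 0.40, limma adjusted p = 0.526), nor was Klf2 (-1.14 ± 0.57, limma adjusted p = 0.121; called with array weights, 0.0245). Btg2, an antiproliferative gene, was the member called higher (0.60 ± 0.22, limma adjusted p = 0.0439), a call lost in 11 of the 18 alternatives, among them without any 1 of the 6 arrays (adjusted p 0.0516 to 0.122).

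Genes of thymic and recently formed T cells fell in 7 of 8 cases tested, with 0 higher, out of 11 on the array; the median was -3.20, or -2.61 at the bounds. Besides Dntt and Ccr9 these included Dtx1, a target and regulator of Notch signalling, which read 4.33, 4.10 and 4.28 against -2.73, -2.17 and -3.61. It fell by 7.07 ± 0.46 (limma adjusted p = 1.88e-06), the second largest fall among genes with a matched symbol, Riken and similar names aside, measured on all 6 arrays without overlap. Tox, a regulator of CD4 T cell development, fell by 3.49 ± 1.01 (limma adjusted p = 0.0152), but not without transferred replicate 3 (0.0537). The summed level of the list was 5.34 to 5.66 on naive and 1.66 to 1.99 on transferred arrays.

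Activation and memory genes were higher in 16 of 18 cases and lower in 1 (median 2.84). Bhlhe40, a transcription factor needed for cytokine production in EAE, read -1.68, -2.54 and -2.71 against 4.32, 3.97 and 4.60 and rose by 6.60 ± 0.31 (limma adjusted p = 3.37e-07). Nfil3 (6.40), Zeb2 (6.74, above background on 2 naive arrays, and 3.71 on another probe), Cd38 (4.76) and the costimulatory receptor Tnfrsf4 (4.29) rose as well. Cd44 read -0.30, -1.31 and -0.64 against 2.42, 2.38 and 3.11, and Il2ra 0.03, 0.23 and -0.04 against 2.64, 2.97 and 3.23, with no overlap in either. Il2ra, a chain of the interleukin-2 receptor, rose by 2.88 ± 0.29 (limma adjusted p = 2.71e-05). Id3 fell by 2.76 and its relative Id2 rose by 3.38, 2 inhibitors of DNA binding that mark naive and effector T cells respectively.

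Early response genes, which are switched on within minutes of stimulation and also during cell isolation, were higher in 15 of 22 cases and lower in 0 (median 2.58). Atf3 read -4.59, -6.42 and -6.74 against 4.58, 4.27 and 5.09, with 1 naive array above background and a fitted rise of 10.56 ± 0.84 (limma adjusted p = 6.42e-06). Ier3 was at least 862-fold higher. Fosl2, an AP-1 subunit, rose by 5.56 ± 0.29 (limma adjusted p = 6.34e-07) and Nr4a2, a nuclear receptor, by 5.65 with 2 naive arrays above background. Fos, in contrast, read 5.21, -1.16 and 2.38 in naive and 5.55, 5.63 and 5.81 in transferred cells: the transferred arrays were alike, while naive replicate 1 came close to them. Its rise was 3.52 ± 1.22 (limma adjusted p = 0.0345), a call lost without any 1 array other than naive replicate 1 (adjusted p 0.067 to 0.0822) and with only the 6 arrays compared (0.092). Fosb (3.41, -3.95 and -0.46 in naive cells) and Dusp1 (4.01, -1.24 and 1.64) had the same order of naive arrays and were called higher too, though not with only the 6 arrays compared (0.0516 and 0.0575). Jun was not called (0.69, limma adjusted p = 0.397), but was without naive replicate 1 (1.57, 0.00954). The summed level of the list ranged from 6.86 to 9.11 over naive arrays and from 9.23 to 9.81 over transferred arrays, and a part of the isolation in these values was not tested.

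**Figure D3:**
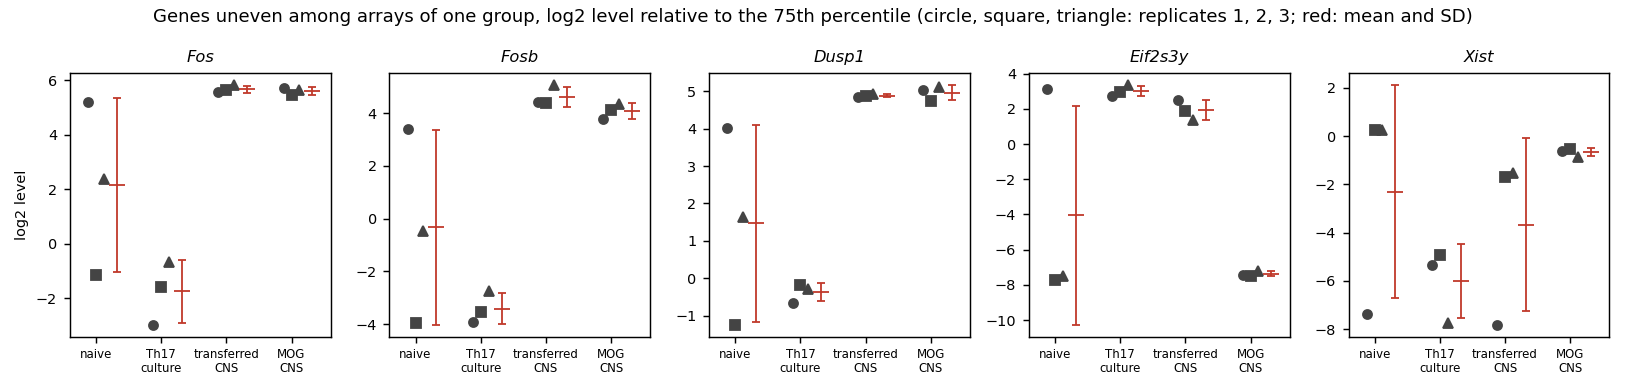
Log2 level of Fos, Fosb, Dusp1, Eif2s3y and Xist on each array in the 4 groups, with circles, squares and triangles for replicates 1, 2 and 3 and a red mark for the mean and SD of 3 arrays; each panel has its own vertical axis. Naive replicate 1 is the highest naive array for Fos, Fosb, Dusp1 and the Y-linked Eif2s3y and the lowest for Xist.

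Of 15 regulatory T cell genes, 9 were higher, 3 lower and 3 not called (median 2.61), beside 20.5% of all genes higher and 28.0% lower. The higher ones included several genes that all activated T cells express, such as Ctla4 (4.74), Tnfrsf4 (4.29) and Il2ra (2.88), and Entpd1, an ectonucleotidase also found on macrophages and microglia (at least 19.1-fold). Foxp3, the defining regulator, read -1.16, -1.66 and -0.62 in naive and -3.76, -2.57 and -1.52 in transferred cells. The groups overlapped slightly, and the fall of 1.47 ± 0.51 passed the test (limma adjusted p = 0.0357) but not without naive replicate 1 (0.0748), naive replicate 3 (0.12), transferred replicate 1 (0.123) or transferred replicate 2 (0.0753). Ikzf2, which encodes Helios, read -0.16, 0.20 and -0.22 against -6.47, -3.39 and -2.57 and fell by 4.08 ± 0.93 (limma adjusted p = 0.00452). Without naive replicate 1 or transferred replicate 1 only 1 of these genes was called lower in place of 3.

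Co-inhibitory receptors and related genes were higher in 6 of 13 cases, lower in 3 and not called in 4 (median 1.81). The list also holds the ligand genes Cd274 and Pdcd1lg2 and the regulator Tox, which was among those lower. Havcr2, which encodes Tim-3, was above background on 1 naive array and read 0.80, 1.16 and 1.0 in transferred cells (7.37 ± 0.58, limma adjusted p = 5.94e-06). Lag3 read -4.41, -3.47 and -3.11 against 2.32, 2.20 and 1.61, and Ctla4 -2.17, -2.95 and -2.25 against 2.55, 2.29 and 2.01, with no overlap. Pdcd1lg2, which encodes a ligand of PD-1, read -3.11, -3.33 and -2.64 against 1.91, 1.85 and 3.12 (5.32 ± 0.33, limma adjusted p = 1.59e-06). Pdcd1, which encodes PD-1 itself, differed by 1.88 ± 0.72 without overlap and just missed the threshold (limma adjusted p = 0.053), which it passed in 8 alternatives. Without naive replicate 3 or transferred replicate 3 only 1 of these genes was called lower in place of 3. Of 12 follicular helper genes, 4 were higher, 2 lower and 6 not called (median 0.94): besides Il21 these were Cd200 (2.29), Icos (2.15) and Bcl6 (1.41), the follicular master regulator, whereas the receptor gene Cxcr5 (-1.20) was not called and the cytokine receptor chain gene Il6st fell by 1.87. Without naive replicate 2, naive replicate 3 or transferred replicate 3, 1 follicular helper gene was lower in place of 2.

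TGF-beta pathway genes were higher in 7 of 17 cases, lower in 4 and not called in 6 (median 0.78). Ligands and processing enzymes rose, namely Tgfb1 (1.23), Tgfb3 (2.49) and the convertase gene Furin (2.88). The induced gene Tgfbi, described above, rose as well. The receptor gene Tgfbr2 fell by 1.01 (limma adjusted p = 0.03), a call lost without naive replicate 2 (0.0877), naive replicate 3 (0.0757) or transferred replicate 3 (0.104), while Tgfbr1 rose by 1.62. The signal transducers Smad3 and Smad4 fell: Smad3 read 2.76, 2.92 and 2.61 against 1.06, 1.25 and 0.95 (-1.68 ± 0.28, limma adjusted p = 0.000691), and Smad4 changed by -1.25. Smad7, an inhibitor of the pathway, fell by 1.17.

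Genes of a list of vasoactive and neuropeptide receptors were higher in 5 of 15 cases, lower in 3 and not called in 7 (median 0.50). The list also holds Penk, a peptide precursor gene, which was among those higher. The pair of receptors for vasoactive intestinal peptide went in opposite directions. While Vipr1 fell, Vipr2 was above background on 1 naive array and read -0.45, -0.67 and -2.07 in transferred cells, a fitted rise of 5.21 ± 1.17 (limma adjusted p = 0.00407). Another Vipr2 probe gave a smaller change of 2.99. The adenosine receptor gene Adora2b was called higher on a probe that was at background on all naive arrays and read -1.29, -1.02 and -0.16 in transferred cells. Another probe of it, which was above background in naive cells, gave a change of 1.60. Receptors for prostaglandin E2 differed too: Ptger2 read -4.57, -3.74 and -3.61 against -0.49, -0.13 and -0.08 and rose by 3.74 ± 0.32 (limma adjusted p = 1e-05), Ptger4 rose by 1.52, and Ptger3 fell by 3.58 with 1 transferred array above background. Penk, the precursor of enkephalins, read -0.51, -1.46 and -0.22 against 3.14, 3.32 and 4.50 and rose by 4.38 ± 0.53 (limma adjusted p = 9.85e-05).

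DNA replication and mitosis genes were higher in 21 of 25 cases and lower in 0 (median 2.09, or 2.0 at the bounds). Mki67, the gene of the Ki-67 proliferation antigen, read -0.17, 1.58 and 1.58 against 3.95, 4.31 and 4.09 and rose by 3.12 ± 0.40 (limma adjusted p = 0.000132). Ccna2 (3.16), which encodes cyclin A2, E2f1 (3.04) and Bub1 (2.92), a kinase of the spindle checkpoint, rose by similar amounts. Naive replicate 1 was the lowest array for all 4 genes. The 4 members not called were all of the replication machinery, namely Pcna and the helicase subunits Mcm2, Mcm4 and Mcm7, at 0.05 to 0.27, while the helicase subunit gene Mcm3 rose by 0.95. A second probe of Cdk1, the mitotic kinase, gave -0.98 in place of 2.74.

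Glycolysis genes were higher in 15 of 18 cases and lower in 0 (median 1.59). Hk2, the inducible hexokinase, read -5.71, -4.68 and -5.39 against 1.65, 2.07 and 2.60, with 2 naive arrays above background and a fitted rise of 7.37 ± 0.37 (limma adjusted p = 4.06e-07). Hk1, the constitutive form, was not called, at 7.36, 7.01 and 7.43 against 7.28, 7.22 and 7.32. The lactate exporter gene Slc16a3 (5.77), Tpi1 (3.87) and Aldoc (3.56) rose most among those measured on all 6 arrays. Of 11 hypoxia response genes, 6 were higher and 0 lower (median 2.02, or 1.64 at the bounds). Vegfa, the vascular growth factor, was above background on 2 naive arrays and read 2.61, 3.74 and 4.01 in transferred cells (8.70 ± 0.66, limma adjusted p = 4.94e-06), and Bnip3 (3.45), Egln3 (3.18) and Ndrg1 (3.14) rose. Macrophages also express Hk2 and Vegfa, and their part was not tested.

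Other metabolic and stress lists stayed closer to the background of all genes. Of 19 respiratory chain genes, 4 were higher, 2 lower and 13 not called (median 0.24), with Cox5a (0.98), Uqcrq (0.84) and Cycs (0.75, not called as the mean of its probes, 0.138) the largest rises and Ndufa4 (-1.03) the largest fall; without naive replicate 1 or transferred replicate 1 only 1 was lower. Of 23 cholesterol synthesis genes, 7 were lower, 1 higher and 15 not called (median -0.24). Tm7sf2, a sterol reductase gene, read 0.62, 0.13 and 0.42 against -0.73, -0.70 and -1.41 and fell by 1.34 ± 0.23 (limma adjusted p = 0.00091). Acat2 changed by -0.82, and Pmvk rose by 1.23, a call lost without naive replicate 2 (0.0584), naive replicate 3 (0.0591) or transferred replicate 2 (0.059). Only 3 of these genes were called lower without naive replicate 1, transferred replicate 1 or transferred replicate 3, and 4 without naive replicate 3. Of 9 heat shock genes, 2 were higher and 1 lower (median 0.33), and the 2 were Hspa1a (5.10), above background on 2 naive arrays, and Hspb1 (2.99), whose call was lost without naive replicate 1 (0.0531), naive replicate 2 (0.129), transferred replicate 1 (0.084) or transferred replicate 3 (0.131), while Dnajb1 fell by 0.86.

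Interferon-stimulated genes were mostly not called: 2 of 26 were higher, 3 lower and 21 not called (median -0.08), beside 48.5% of all genes called. Isg15, whose promoter with 3 motif matches is shown above, read 3.23, 4.15 and 3.04 in naive and 3.67, 3.66 and 4.28 in transferred cells, and its difference of 0.39 ± 0.64 lay within the spread of the arrays (limma adjusted p = 0.647). Cxcl10, a chemokine induced by interferon, was one of the 2 that rose (4.27 ± 1.05, limma adjusted p = 0.00679), and Rsad2 (1.73) was the other, a call lost in 9 of the 18 alternatives (adjusted p up to 0.159), among them without any 1 array other than naive replicate 2 and with the replicate block (0.0613). Without any 1 array other than naive replicate 2, 1 of these genes was called higher in place of 2, and without naive replicate 2 or transferred replicate 3, 1 was called lower in place of 3. Naive replicate 2 was the highest naive array for Isg15 and Igtp. The call of Igtp as lower (-1.47 ± 0.53, limma adjusted p = 0.0422) was lost in 6 of the 18 alternatives, among them without naive replicate 2 (0.153), transferred replicate 2 (0.084) or transferred replicate 3 (0.135).

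**Figure D4:**
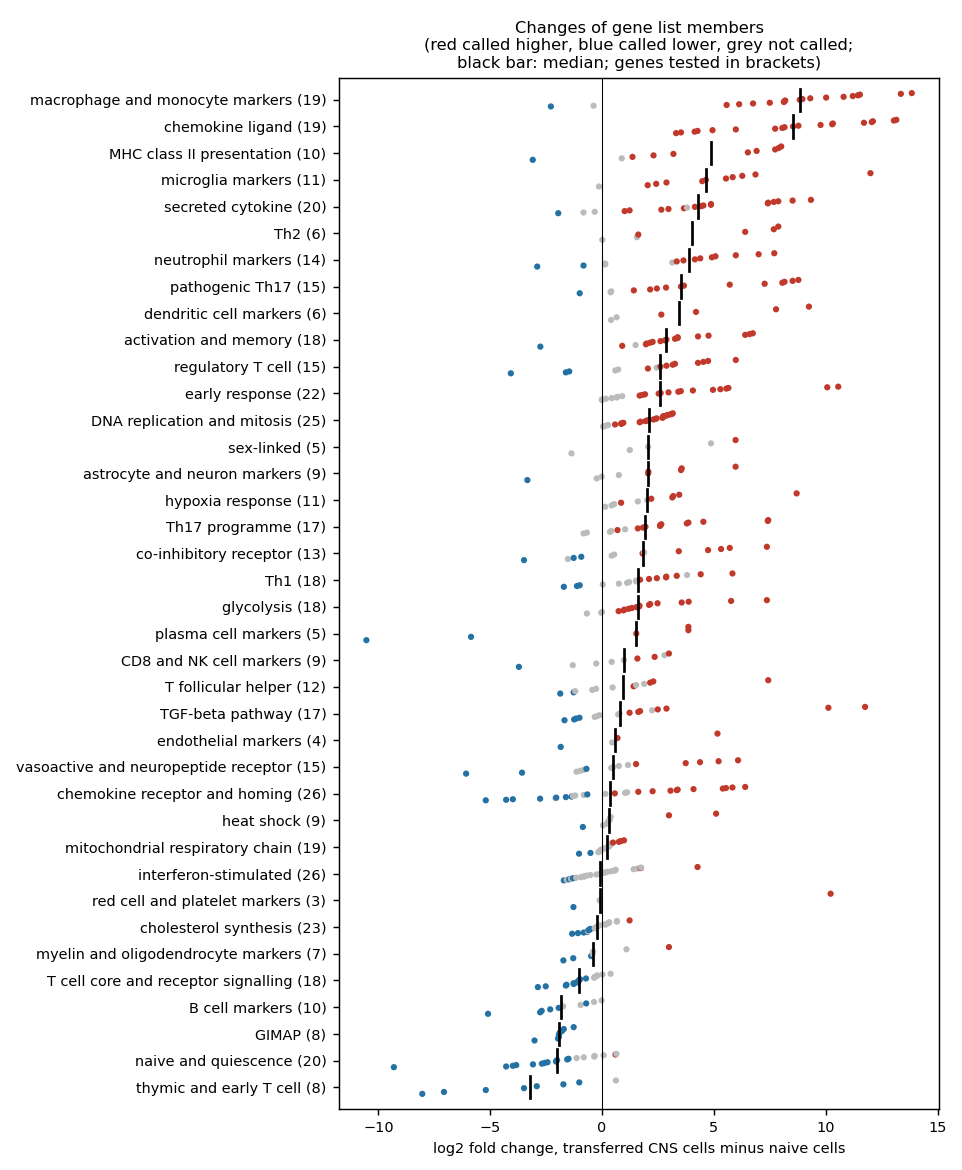
Fitted log2 change (transferred CNS minus naive cells) of every tested member of 38 gene lists, ordered by list median (black bars); red, blue and grey points are genes called higher, lower and not called, and genes at background in 1 group are drawn at their fitted value, which is not a bound. Macrophage markers and chemokine ligands lie at the top and GIMAP, naive and thymic genes at the bottom.

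Markers of other cell types were examined because the cells came from different tissues. Of 19 macrophage and monocyte markers, 17 were higher, 1 lower and 1 not called, with a median of 8.84 (8.82 at the bounds). On naive arrays 7 of the 19 were at background throughout and 8 were above it on every array, whereas all 19 were above background on every transferred array. Here and in the lists below, a gene at background on every naive array was tested because another group was above it, so counts of higher members describe these arrays and are no further test. C1qc, a subunit of complement C1q, read 5.37, 6.08 and 5.80 in transferred cells, at least 2710-fold above naive cells (limma adjusted p = 1.21e-07). Arg1, which encodes arginase 1, read 5.93, 6.33 and 7.47, at least 4810-fold above. C1qa rose by 11.53 with 1 naive array above background. Mrc1, the mannose receptor, was at background on all naive arrays and read 3.48, 4.02 and 5.82 in transferred cells, at least 1070-fold higher. Apoe read -1.03, -1.03 and -0.41 against 8.0, 8.39 and 8.03, and Csf1r, the receptor that macrophages need to survive, 0.12, -0.15 and -0.18 against 6.33, 6.99 and 6.73. A second probe of Csf1r gave a smaller change of 1.86. Itgam was the member called lower (-2.29), but its other probes gave 1.25 and 4.46.

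Microglia markers were higher in 10 of 11 cases (median 4.64, or 4.48 at the bounds), with summed levels of 6.29 to 6.92 on naive and 7.26 to 7.58 on transferred arrays. P2ry12 read -0.68, -0.82 and -0.40 and Tmem119 1.31, 1.37 and 1.30 in transferred cells, and each was above background on 1 naive array. Trem2, a lipid receptor of microglia and macrophages, was at least 1660-fold higher, and Sparc, a matrix protein, rose by 6.27. MHC class II presentation genes were higher in 8 of 10 cases (median 4.85), with H2-Eb1 at -0.02, -0.79 and -0.48 against 7.41, 8.13 and 7.20 (8.01 ± 0.33, limma adjusted p = 1.73e-07). H2-Aa (7.90), H2-Ab1 (7.74) and H2-DMb1 (6.91) rose too. H2-Ob, a class II gene expressed mainly by B cells, fell by 3.1. Macrophages and dendritic cells also express class II genes, and their part in these values was not tested. Of 6 dendritic cell markers tested, out of 8 on the array, 4 were higher and 0 lower (median 3.42, or 2.32 at the bounds), namely Itgax (at least 381-fold), Batf3 (7.78, above background on 2 naive arrays), Clec9a (at least 3.98-fold) and Cd209a (2.65, above background on 1 naive and 2 transferred arrays). The groups overlapped for Cd209a, whose call was lost after normexp (0.0778) and with array weights (0.0605).

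Neutrophil markers were higher in 9 of 14 cases and lower in 2 (median 3.90, or 3.48 at the bounds). Their summed level was 6.81, 6.74 and 7.77 on naive and 7.96, 6.66 and 6.5 on transferred arrays, so that the sums overlapped. S100a8, S100a9, Retnlg and Mmp8 made up little of the naive sums, which do not describe the list as a whole. On naive arrays 6 of the 14 were at background throughout. S100a8, a calcium-binding protein of neutrophils and monocytes, read -2.40, -2.97 and -3.23 against 5.35, 3.32 and 0.69 and rose by 5.98 ± 0.88 (limma adjusted p = 0.000338). S100a9, its partner, followed the same order at 6.63, 4.30 and 0.40 in transferred cells, and so did Retnlg at 3.21, 0.40 and -3.84 (at least 47.7-fold above naive cells). Mmp8 was more even, at 0.39, 0.43 and -1.24 (at least 45.7-fold). Ngp, a granule protein, was at background on all naive arrays and read 1.76 and -1.77 on transferred replicates 1 and 2, while replicate 3 was at background; its call (limma adjusted p = 0.0166) was lost without naive replicate 3 (0.0557). The median change of the list was 6.21, 4.16 and 1.11 within slides 1, 2 and 3. Without naive replicate 3, transferred replicate 1 or transferred replicate 2, 1 neutrophil marker was called lower in place of 2.

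B cell markers were lower in 6 of 10 cases and higher in 0 (median -1.84, or -1.17 at the bounds). Ms4a1, which encodes CD20, read -2.21, -3.86 and -2.26 in naive cells and was at background on every transferred array, at least 7.73-fold lower (limma adjusted p = 1.51e-05). Bank1 (-2.77, above background on 2 transferred arrays) and Cr2 (-2.32) fell, but a second Cr2 probe gave 0.13. The summed level of these markers was 0.76 to 1.79 on naive and 0.23 to 0.68 on transferred arrays. Jchain, the joining chain of secreted antibodies, read 4.26, 1.61 and 4.47 in naive cells and was at background on all transferred arrays, at least 577-fold lower (limma adjusted p = 7.21e-05). Of 5 plasma cell markers 2 were lower, Jchain and Mzb1, and 3 higher, Sdc1, Irf4 and Xbp1, the last 2 also expressed by activated T cells. Of 9 CD8 and NK cell markers 3 were higher, namely Gzmk (1.58, but 0.63 and not called as the mean of its probes, 0.0635), Klre1 (at least 2.8-fold) and Klrb1c (at least 4.78-fold, read -1.79, -2.42 and -5.57 in transferred cells, the last within the naive range, with adjusted p up to 0.112 without any 1 array other than transferred replicate 3), and 1, Cd8b1, was lower (1.08, 0.69 and 0.33 against -2.76, -2.82 and -3.49, a change of -3.72 ± 0.32, limma adjusted p = 1.12e-05).

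Genes of brain cells were counted beside 20.5% of all genes called higher and 28.0% lower. Of 7 myelin and oligodendrocyte markers, 1 was higher and 3 lower (median -0.42), with summed levels of 4.77 to 4.95 on naive and 3.22 to 4.01 on transferred arrays. Most of this sum was the Mbp probe used, at 4.58, 4.56 and 4.40 on naive arrays. Mag, a myelin glycoprotein, was the one that rose, from -4.30, -5.04 and -4.46 to -2.05, -1.15 and -1.64 (2.99 ± 0.35, limma adjusted p = 7.15e-05). Cnp (-1.73) and Sox10 (-0.49) fell, and the call of Sox10 was lost in 11 of the 18 alternatives (adjusted p up to 0.13), among them without any 1 array other than naive replicate 3. The Mbp probe used fell by 1.29, but another probe of it gave 1.97, and their mean was not called (0.91). Of 12 astrocyte and neuron markers on the array 9 were tested, 5 were higher and 1 lower (median 2.06, or 0.75 at the bounds). The summed level of the 9 was 3.91 to 6.21 on naive and 2.86 to 3.56 on transferred arrays. On naive arrays this sum was almost all Snap25, at 5.07, 3.87 and 6.2, so it does not describe the list as a whole. 4 of the 5, among them S100b, Slc1a3 and Gfap, were at background on every naive array and were tested because another group was above it. The other, Aldoc, is also on the glycolysis list and had a mean of 5.54 in cultured Th17 cells. S100b (at least 12.6-fold) and Slc1a3 (at least 3.25-fold) rose, and Snap25, a synaptic protein, fell by 3.34. Gfap, the astrocyte filament gene, was at background on all naive arrays and read -4.48, -4.48 and -4.49 in transferred cells, at least 2.25-fold higher, though not called after normexp background correction (0.0942). Of 4 endothelial markers 2 were higher, Vwf (5.16, above background on 1 naive array) and Kdr (0.69, not called after median scaling, 0.0588), and 1 was lower, Pecam1 (-1.85). Among 3 red cell and platelet markers Pf4, a platelet chemokine that some macrophages also express, rose by 10.22 with 1 naive array above background, and Itga2b fell by 1.28 (limma adjusted p = 0.0342), a call lost in 10 of the 18 alternatives (adjusted p up to 0.132), among them without any 1 array other than transferred replicate 1.

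**Figure D5:**
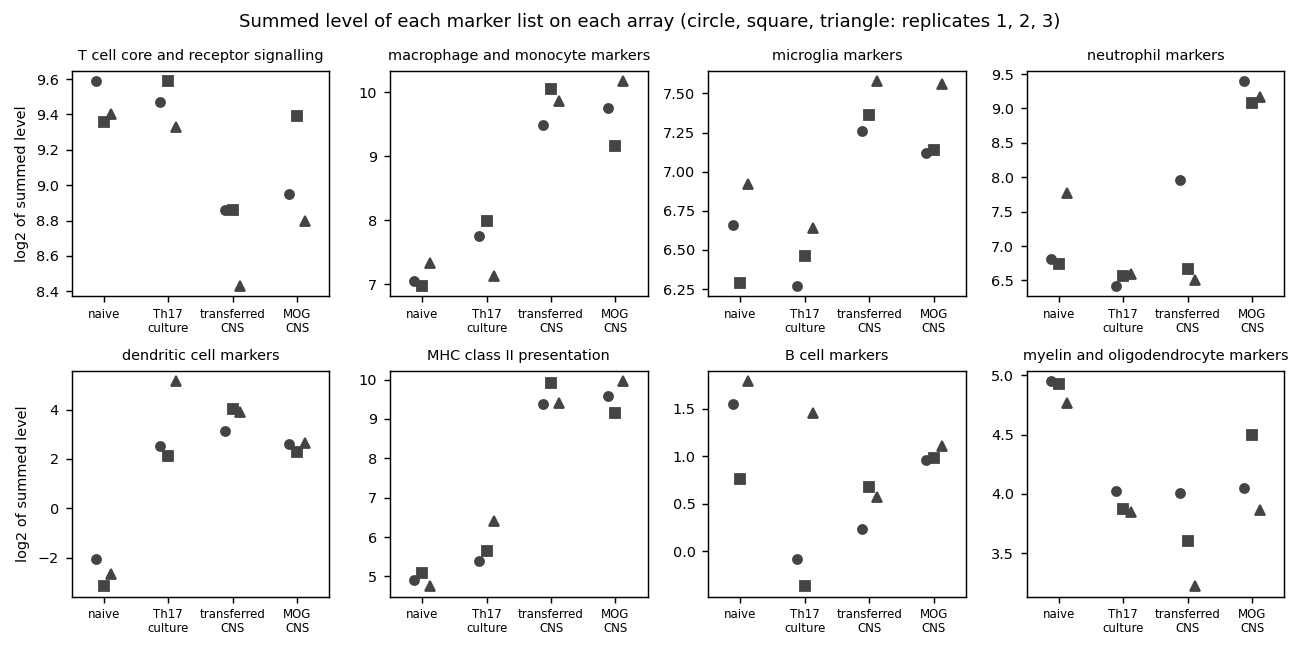
Log2 of the summed level of 8 marker lists on each array in the 4 groups, with circles, squares and triangles for replicates 1, 2 and 3; each panel has its own vertical axis. Macrophage markers sum to 6.97 to 7.33 on naive and 9.49 to 10.05 on transferred arrays, and T cell core genes to 9.36 to 9.59 and 8.43 to 8.86.

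The Y-linked gene Eif2s3y, which encodes a translation factor, read 3.11, -7.74 and -7.52 in naive and 2.50, 1.87 and 1.38 in transferred cells. It was called higher (5.97 ± 2.23, limma adjusted p = 0.0468) although naive replicate 1 exceeded all transferred arrays, and the call was lost without any 1 array other than naive replicate 1 (adjusted p 0.0842 to 0.169). Xist read -7.39, 0.25 and 0.25 against -7.81, -1.68 and -1.51 and was not called (limma adjusted p = 0.625). On transferred replicates 2 and 3 both Eif2s3y and Xist were above background. The sex of the mice is not in the labels, and whether it bears on other results was not tested.

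The largest rises of genes with a matched symbol, Riken and similar names aside, measured on all 6 arrays began with Chil3. This gene of a chitinase-like protein of activated macrophages read -3.33, -2.98 and -4.17 against 8.10, 8.39 and 8.53 and rose by 11.83 ± 1.26 (limma adjusted p = 4.17e-05). After Tgfbi came Ccl9 (9.77), Apoe (8.96), Trf (8.96), C1qb (8.84), Ccl3 (8.78), Plbd1 (8.78), Ctsh (8.43), Aif1 (8.40), Tgm2 (8.32) and Mpeg1 (8.31). Among these Tgm2, a transglutaminase, was already at a mean of 4.10 in cultured Th17 cells, while Apoe had a mean of -2.13 and C1qb of -4.05 there. Il1b, the inflammatory cytokine, rose from background to 5.26, 6.07 and 5.57, at least 2490-fold (limma adjusted p = 7.01e-06).

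The largest falls of genes measured on all 6 arrays, with the same names passed over, came after Dntt, Dtx1 and Vipr1 from the following genes. They were Art4 (-5.77), Ly6d (-5.64), Wnt5b (-5.35), the T cell receptor alpha segment Trav14n-1 (-5.24), Ccr9, Xkrx (-5.04), Ifit1bl1 (-4.90), Nsg2 (-4.85) and Patj (-4.68). Wnt5b, a secreted Wnt ligand, read 0.32, 0.39 and 0.23 against -4.71, -4.83 and -5.58, with little spread in either group (-5.35 ± 0.25, limma adjusted p = 3.37e-07). Nsg2 was spread widely among the transferred arrays, at 1.76, 1.13 and -3.63. Another probe of Patj gave -2.29. The 6 largest falls to background, by their bounds, were those of Jchain, Lrrc23 (at least 22.2-fold lower), Mzb1 (21.1-fold), Ccdc30 (19.2-fold), the glutamate receptor gene Grm6 (17.0-fold) and Chdh (16.7-fold), a mitochondrial choline dehydrogenase.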

How the data were processed

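RNA was prepared with a NucleoSpin RNA II kit, labelled with Cy3 from 100 ng by the LIQA kit, and hybridised to 1-colour Agilent arrays, per the labels' protocols. The deposited files hold background-corrected signal intensity per spot, made by the authors with Agilent Feature Extraction 10.7.3.1 (protocol GE1_107_Sep09), per the file headers, and probe coordinates on mm9. The deposited series matrix, whose scale and normalization are not given in the sources used here, holds linear signal values of 39429 probes (array medians 50.4 to 51.2, 149 empty cells) and served as an alternative only.

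Intensities were converted to log2 and each array's 75th percentile over non-control spots was subtracted (75th percentile signals 686 to 1023). Control spots and 120 to 180 outlier spots per array were left out, and spots of a probe averaged. Of 39405 probes, 27223 were named by accession, 3573 by symbol and 565 by synonym through RefSeq, and 8044 kept the file's name. For each of 30101 names the probe with the highest mean was used, and a gene was tested if all 3 arrays of some group were well above background, which left 18632. One limma 3.58.1 model (R 4.3.3) with 4 group means was fitted to all 12 arrays (8 residual and 2.464 prior degrees of freedom). Calls used an adjusted p under 0.05 (Benjamini-Hochberg over all genes tested). A gene with no array above background in one group has only a bound ("at least N-fold"), computed against the lowest signal well above background on those arrays, or the gene's own signal where higher. Figures were drawn in Python 3.11.15 with pandas 2.3.3 and matplotlib 3.10.9.

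The members and the 38 gene lists were chosen with earlier results of these data known. Genes were named by rule: the top 12 in each direction by fold change among genes above background on every array compared and without overlap, the 6 largest bounds each way, up to 4 called members per list, and 20 fixed genes. In the rankings by fold change and by bound, some names were passed over. These were clone, Riken, Gm, LOC and accession-only names and names not matched to a current symbol. Other genes named were chosen after their values were seen. Results of some genes are not reported here. The model did not pair samples by replicate number. Deviations of same-numbered naive and transferred arrays from their group means correlated at 0.055, 0.199 and 0.077 across genes. Differently numbered arrays were not compared, so these values do not settle whether the numbers pair the samples. On simulated data of 18632 genes, 79% of 100 genes changed by 2 on the log2 scale and 27% of 100 changed by 1 were called, with 8 unchanged genes called. No other genes were changed there, while 48.5% of genes were called in the real comparison. The adjusted p depends on that share, so these rates do not give the rates of the real comparison. Alternatives covered normalization, background correction, filters, probe choice, arrays in the fit, a replicate block, variance prior, array weights, thresholds and leaving out each replicate.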

Additional observations from a re-analysis of the deposited data

Results flagged for a closer look

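Of the 171 genes named by rule, 21 differed between transferred CNS cells and CNS cells of immunised mice (limma, adjusted over all genes), beside 3.19% of all genes. That difference equals the difference of both groups' changes from naive cells, which share the naive arrays, so a gene listed here changed by unequal amounts. Groups of 3 were not examined for single outlying arrays.

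After transfer 5 genes were higher. Mrc1, the mannose receptor of macrophages, was 4.57 higher on the log2 scale (limma adjusted p = 0.0059), and Il21 was 4.28 higher (limma adjusted p = 0.00122). Il21 read 4.16, 4.05 and 3.88 after transfer and -0.37, 0.19 and -0.56 in immunised mice. Ccr7 (2.13), Pdcd1lg2 (2.11) and Cd200 (2.02) were higher by similar amounts.

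The other 16 genes were lower after transfer. Foxp3 differed by -4.25 (limma adjusted p = 0.00198): it read 1.37, 2.08 and 1.45 in immunised mice, above every naive and every transferred array. Some markers of B and plasma cells were lower after transfer, by at least 4.89-fold for Ms4a1, 19.4-fold for Jchain and 5.39-fold for Mzb1. These were at background on every transferred array and so have only a bound. Other members of these lists were not called, namely Bank1 (-1.39, limma adjusted p = 0.0828), Cr2 (-0.36, 0.584), Sdc1 (-0.84, 0.561) and Irf4 (0.49, 0.475). Ly6d, a surface protein of early B cells and some epithelial cells, differed by -5.17. The neutrophil genes S100a8 (-4.04) and Mmp8 (-2.69) were lower as well. Genes of homing and early T cell stages were lower, namely Dtx1 (-3.60), S1pr1 (-2.25), Ccr9 (-2.16) and Cxcr6 (-1.74), as were the T cell genes Gzmk (-2.71), Cd5 (-2.24) and Icos (-1.52) and the myelin enzyme gene Cnp (-0.82).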

How the results depend on the processing

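In 20 alternatives the counts of genes kept within 1.5 times their value, except for 3302 lower genes with an unadjusted p under 0.05 and at least 2-fold, 1865 rises of at least 2-fold when only genes above background on all 6 arrays were used, and 2056 falls of at least 2-fold after normexp background correction. Of the 165 genes named by rule and called, 104 were called among genes above background on all 6 arrays, since that filter leaves out genes at background in naive cells. With the replicate number as a block, 3766 genes were higher and 5085 lower, 321 list members (318 without the block) and 164 named genes were called. Leaving out single arrays gave 3309 to 3638 higher and 4248 to 4820 lower genes. The median change of all genes was -0.21 to -0.11, and the share of higher among called genes 37.0% to 48.8% (42.2% as reported).

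Of 232 genes followed through 18 alternatives each, 186 kept call and direction in every one, 29 lost a call in at least 1, 9 gained one and 9 changed sign in at least 1. Itgam, called lower, was 1.14 higher as the mean of its probes. The other genes that changed sign were not called in any such setting and lie near 0 or have uneven arrays: Gata3 was -0.06 after quantile normalization and in the series matrix, -0.04 after median scaling, -0.52 with array weights and -0.33 to 0.52 without single arrays; Hk1 -0.04 after median scaling, -0.32 as the mean of probes, -0.01 with array weights and -0.12 to 0.09 without single arrays; Mcm4 and Pcna -0.03 and -0.05 after quantile normalization and in the series matrix. Without single arrays the ranges were -0.01 to 0.12 for Mcm4, -0.05 to 0.13 for Mcm7, -0.25 to 1.15 for Il23r, -0.73 to 0.02 for Sqle and -3.91 to 0.71 for Xist. The cause was not tested. With 3 arrays per group, small changes and genes near background are the least certain.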

Other observations

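Some genes had lower means in cultured Th17 cells than in both naive and transferred cells. Klf2, a quiescence factor that drives S1pr1, had means of 5.96 in naive, 0.72 in cultured and 4.82 in transferred cells. It changed by -5.24 from naive to cultured cells (limma adjusted p = 5.64e-05) and was 4.10 ± 0.57 higher after transfer than in culture (limma adjusted p = 0.000501). Ccr7 (means of 6.5, 3.93 and 5.68) and Itga4 (3.54, 0.28 and 2.24) had the same order and were 1.75 and 1.96 higher after transfer than in culture (limma adjusted p = 0.0106 and 0.0295). S1pr1 did not: its means were 3.93, 1.49 and -0.05, and it was lower after transfer than in culture by -1.54 ± 0.44 (limma adjusted p = 0.0235). These comparisons share the culture arrays.

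Sqle, the squalene epoxidase of cholesterol synthesis, showed the opposite order. It had means of 1.02 in naive, 3.38 in cultured and 0.69 in transferred cells, with a change of 2.36 into culture (limma adjusted p = 0.000263) and of -2.69 ± 0.32 from culture to transferred cells (limma adjusted p = 0.000206). Fasl, a death ligand of effector T cells, was lowest in culture, at means of -0.60, -2.03 and 1.5, and changed by 3.53 ± 0.36 from culture to transferred cells (limma adjusted p = 7.5e-05).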
